A study of Homo sapiens with 6 samples.

Results

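The machinery that copies DNA in S phase was followed through 47 genes in MDA-MB-231 cells, a human triple-negative breast cancer line, with and without ArA, spelled out in the study's title as arachidonic acid, the membrane fatty acid that eicosanoids are made from. They were chosen by symbol for their known part in replication, with earlier results of these data known. All 47 were found among the 63241 genes of the deposited table. Of the 6 libraries, 3 came from non-treated cells (control replicates 1 to 3) and 3 from cells given 40 µM of ArA and cultured for 24 h (ArA replicates 1 to 3). Both groups are the same line in the same serum-containing medium, no vehicle is named for the controls, and 1 dose and 1 time were measured. The labels do not say whether replicates were separate cultures, so the spread behind each p-value may be technical, and p-values measure no more than that spread.

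Before S phase, the origin recognition complex, CDC6 and CDT1 load the MCM2-7 helicase onto origins, a step called licensing, and geminin (GMNN) blocks CDT1 afterwards. The kinase CDC7 with its partner DBF4 then triggers firing, when CDC45 and the GINS complex join MCM2-7 to form the active helicase. Polymerases alpha, delta and epsilon copy the strands with the clamp PCNA, its loader RFC, the single-strand binding protein RPA and the nuclease and ligase FEN1 and LIG1. Thymidylate synthase, ribonucleotide reductase, thymidine kinase and dUTPase keep the nucleotide pools filled, and E2F transcription factors switch on most of these genes together at the G1/S boundary. In proliferating tumour lines these transcripts are used as a readout of cycling cells.

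Levels are in TPM, a share of all transcripts corrected for transcript length, so genes can be compared with each other, but the depth of each library is unknown. In bulk RNA, fewer cells in S phase and less RNA per cell cannot be told apart. The line's mesenchymal markers were high, from 5374 to 6303 TPM summed over 6 genes, the 5 blood markers summed to at most 0.43 TPM, and the fibroblast and muscle markers to 8.97 to 11.4 TPM. Of the luminal markers, the hormone receptor gene PGR was listed at 0 in all 6 libraries and ESR1 did not pass 0.03 TPM, while the luminal keratins KRT8 and KRT18 were at 343 to 439 and 257 to 327 TPM. Of all 12999 tested genes (mean of at least 1 TPM), 3 passed an adjusted p of 0.05 in limma. Control replicate 2 and ArA replicate 1 stood apart from the other 4 libraries by the GC content of the genes that were high in them, and results are also given without both.

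None of the 47 replication genes passed the test, and the differences of nearly all lay slightly below the median difference of all tested genes. All 47 passed the filter of 1 TPM, and 41 of them lay above the median level of all tested genes, 11.4 TPM. No comparison with genes of like level was made. In limma on log2(TPM + 1), 0 of 47 had an adjusted p under 0.05, where 0.0231% of all tested genes did, and 0 of 47 had an unadjusted p under 0.05, where 2.78% of all tested genes did. Each of the 47 adjusted p-values was 0.999. ArA-to-control ratios of mean TPM ran from 0.836 for RFC1 to 1.05 for ORC1. The median log2 difference, ArA minus control, was -0.05 over the 47 genes and 0.06 over all tested genes. Less that all-gene median, 45 of the 47 differences were below 0, where 50% of all genes are by construction, and the median of the 47 was -0.11. Without that subtraction, 36 of 47 were below 0, where 31.1% of all genes were. This count was 45 under 4 other scalings, where 48.0 to 50.7% of all genes were below 0. ORC1 and GMNN alone lay above the all-gene median, by 0.01 and 0.02.

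The 95% intervals give the size of change these libraries could not resolve. All 47 intervals of the log2 difference spanned 0, with a median lower bound of -0.35 and a median upper bound of 0.26. The widest reached from -0.86 to 0.65, for DBF4. Only for MCM4 did the interval, less the all-gene median, stay wholly below 0, at -0.41 to -0.05. That is 1 of 47 genes, where 0.931% of all tested genes have such an interval.

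**Figure D1:**
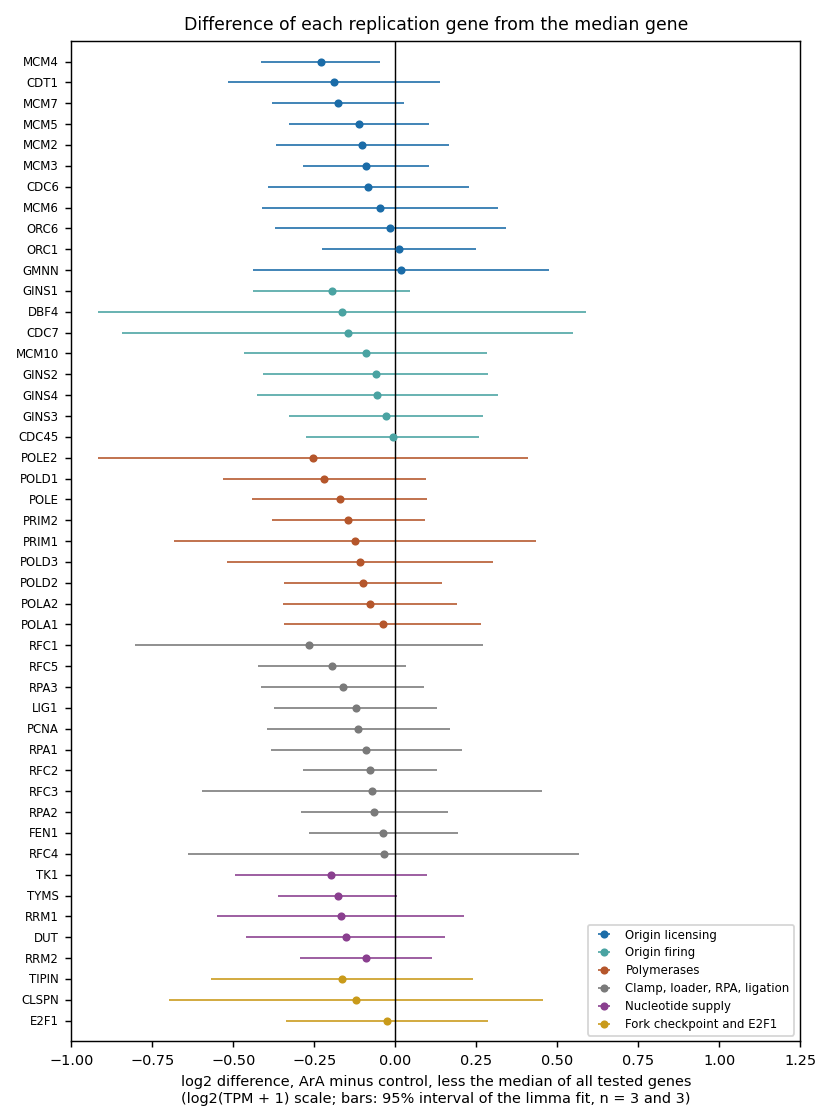
The log2 difference of each of the 47 genes, ArA minus control, less the median of all tested genes (x axis), grouped and coloured by role, with bars for the 95% interval of the limma fit. Nearly all points lie left of 0 by less than the length of their own bar, and only the interval of MCM4 stays left of 0.

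Shares of the total set the zero point of these differences. Mitochondrially encoded transcripts took 31.6 to 32.9% of TPM in the control libraries and 32.1, 28.0 and 26.9% in ArA replicates 1, 2 and 3, and TPM has a fixed total, so the share left for other genes differs between libraries. With TPM rescaled without them, the all-gene median was -0.00, 45 of the 47 genes were below 0 and their median was -0.12. Summed over the 47 genes, transcripts took 2297.92, 2345.85 and 2471.42 TPM in control replicates 1, 2 and 3 and 2097.29, 2331.35 and 2330.2 TPM in ArA replicates 1, 2 and 3. The sums of the groups overlap, since ArA replicates 2 and 3 lie above control replicate 1. The median deviation of the 47 genes from their own means, less that of all genes, was 0.01, 0.10 and 0.07 in control replicates 1, 2 and 3 and -0.06, -0.03 and -0.03 in ArA replicates 1, 2 and 3. On this scale each of the 3 control libraries was above each of the 3 ArA libraries. With the genes split by GC content, neither part kept that separation. For the 23 genes of lower GC content, control replicate 2, at -0.127, lay below ArA replicates 2 and 3, at 0.005 and 0.023. For the 24 others, control replicate 1, at -0.082, lay below ArA replicates 1 and 2, at -0.022 and -0.057.

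**Figure D2:**
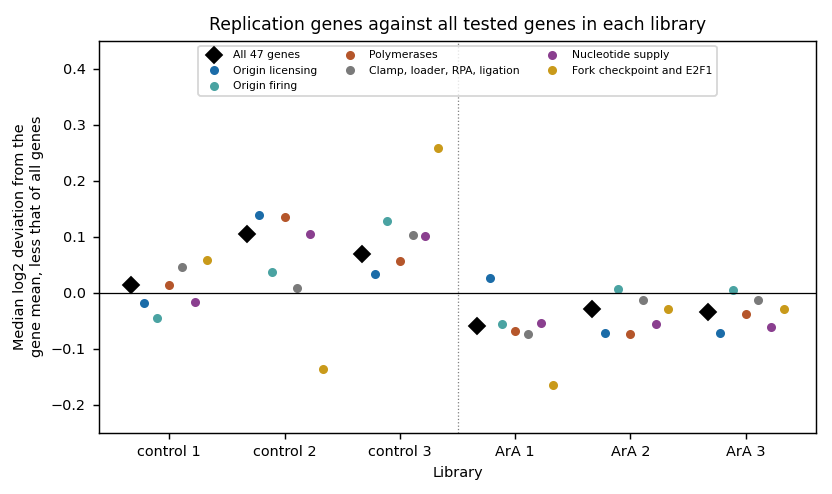
Median log2 deviation of the replication genes from each gene's mean over the 6 libraries, less that of all tested genes (y axis), for all 47 genes (black) and each role group (colours) in each library (x axis). The black points lie between 0.01 and 0.10 in the controls and between -0.06 and -0.03 in the ArA libraries, while single role groups cross 0 in both groups.

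A feature the choice of genes did not use is the sequence before their start sites. In RefSeq promoter windows on GRCh38.p14 (250 bases before to 50 after each start), 41 of the 47 genes had at least 1 entry, and GINS4, MCM4, MCM5, POLD3, RPA2 and RPA3 had none. The words TTTGGCGC, TTTCCCGC, TTTCGCGC and TTTGCCGC, on either strand, stand for the motif bound by E2F factors. At least 1 of them was found in 23 of the 41 genes, in 10 of 41 other pathway genes and in 683 of 9783 tested genes with an entry (6.98%). Counted by window, the motif was in 23 of the 56 windows of the 41 genes (41.1%) and in 3.31% of all 35116 windows. Licensing genes held it in 7 of 9, polymerase genes in 4 of 8 and nucleotide genes in 2 of 5. The CCAAT box (CCAAT, either strand) was in 25 of the 41 genes and 43.6% of tested genes, and the word TTTGAA, part of the element of later cell-cycle genes, in 3 of the 41 and 13.6%. A match is a description of letters, not of binding, and a match in any window of a gene counted. The 41 genes had 56 windows, with a median GC content of 65.7% against 58.7% for all windows. The part of GC content in these shares was not tested. The median difference less that of all genes was -0.11 for the 23 genes with an E2F word and -0.10 for the 18 without.

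The 180 bases before the start are shown for 1 gene of each role with an E2F word, and for TK1 as a gene without, 5′ to 3′ on the gene's strand, with the E2F words in capitals. They are chr2:135876444-135876623 (MCM6, reverse strand), chr1:91500932-91501111 (CDC7, forward), chr11:65261782-65261961 (POLA2, forward), chr20:5126623-5126802 (PCNA, reverse), chr18:657473-657652 (TYMS, forward), chr20:33686386-33686565 (E2F1, reverse) and chr17:78187053-78187232 (TK1, reverse).
MCM6: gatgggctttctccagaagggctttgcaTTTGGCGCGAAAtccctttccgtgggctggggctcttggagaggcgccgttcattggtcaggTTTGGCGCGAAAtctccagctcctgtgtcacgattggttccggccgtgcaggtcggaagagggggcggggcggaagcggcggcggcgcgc
CDC7: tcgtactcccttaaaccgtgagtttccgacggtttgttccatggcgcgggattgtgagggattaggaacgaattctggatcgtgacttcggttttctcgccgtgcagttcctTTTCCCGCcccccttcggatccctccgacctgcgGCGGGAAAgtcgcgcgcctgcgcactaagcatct
POLA2: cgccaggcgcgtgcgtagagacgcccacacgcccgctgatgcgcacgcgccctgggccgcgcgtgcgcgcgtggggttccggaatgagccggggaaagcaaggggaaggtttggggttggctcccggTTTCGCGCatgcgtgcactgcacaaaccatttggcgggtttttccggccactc
PCNA: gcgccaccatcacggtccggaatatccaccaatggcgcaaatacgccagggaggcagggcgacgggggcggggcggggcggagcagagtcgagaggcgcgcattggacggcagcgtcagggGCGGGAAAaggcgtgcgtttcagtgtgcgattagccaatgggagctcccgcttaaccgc
TYMS: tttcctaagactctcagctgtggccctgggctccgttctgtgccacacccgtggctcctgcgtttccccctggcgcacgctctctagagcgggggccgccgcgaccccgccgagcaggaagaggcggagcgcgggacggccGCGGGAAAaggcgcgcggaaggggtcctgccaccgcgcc
E2F1: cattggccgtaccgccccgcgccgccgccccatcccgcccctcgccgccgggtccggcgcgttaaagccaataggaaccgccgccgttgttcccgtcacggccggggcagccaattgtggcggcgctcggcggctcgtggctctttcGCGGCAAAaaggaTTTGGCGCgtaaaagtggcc
TK1: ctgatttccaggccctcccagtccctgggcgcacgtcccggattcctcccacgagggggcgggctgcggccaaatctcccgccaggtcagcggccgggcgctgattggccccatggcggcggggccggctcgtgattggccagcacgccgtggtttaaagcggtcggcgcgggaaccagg
MCM6 carries 4 matches as 2 pairs, each a TTTGGCGC overlapped by GCGCGAAA, a match on the other strand, that begin 152 and 90 bases before the start. CDC7 carries a forward and a reverse match 68 and 34 bases before its start. E2F1, the gene of the factor itself, has matches 33 and 20 bases before its start. TK1 has no such word in this stretch and has ATTGG, the CCAAT box on the other strand, 77 and 46 bases before the start.

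Licensing genes differed widely in level and little between groups. MCM7 (chromosome 7, 100092728 to 100101940, reverse strand; gene positions are on hg38, from GENCODE), a helicase subunit, was the most abundant of all 47 and had 202.47, 241.97 and 218.61 TPM in control replicates 1, 2 and 3 and 202.23, 206.56 and 198.95 TPM in ArA replicates 1, 2 and 3. Its groups overlap, since control replicate 1 lies below ArA replicate 2, and the controls hold the spread. The log2 difference was -0.12 (SE 0.09, limma adjusted p = 0.999), or -0.18 less the all-gene median. MCM4 (chromosome 8, 47960185 to 47978160, forward strand), another subunit, had 99.72, 96.15 and 104.76 TPM in the controls and 91.32, 85.55 and 89.16 TPM in the ArA libraries. All 3 ArA values lie below all 3 control values. Its log2 difference of -0.17 (SE 0.08, limma adjusted p = 0.999) had the smallest unadjusted p of the 47, 0.0601. GMNN (chromosome 6, 24774931 to 24786099, forward strand), the inhibitor of CDT1, had 47.21, 31.78 and 47.5 TPM in the controls and 35.54, 48.29 and 48.7 TPM in the ArA libraries, with the lowest value of each group in control replicate 2 and ArA replicate 1.

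CDT1 itself, named here after its values were seen, had 12.9, 16.23 and 18.25 TPM in the controls and 14.36, 14.18 and 13.98 TPM in the ArA libraries, all inside the control range. The ratio of GMNN to CDT1 was 2.74 ± 0.859 in control and 3.12 ± 0.561 in ArA libraries (SD, n = 3 each), which overlap. The lowest ratio of each group was in control replicate 2, 1.96, and ArA replicate 1, 2.47. The longest transcript of GMNN had a GC content of 43.6% and that of CDT1 64.9%. The part of GC content in this ratio was not tested. Over the 11 licensing genes, 9 lay below the all-gene median, 7 were below 0, 0 passed, and the median difference less that of all genes was -0.09.

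The 6 subunits of the MCM2-7 ring, which sit in the complex in equal number, were not at equal transcript levels. Over all 6 libraries, MCM7 had 212 ± 16.3 TPM, MCM4 94.4 ± 7.13, MCM3 89.96 ± 3.99, MCM5 66.2 ± 4.15, MCM2 62.5 ± 5.80 and MCM6 24.3 ± 3.19 TPM (SD, n = 6). MCM7 was above MCM4, MCM3 above MCM5, and MCM2 above MCM6 with no overlap between the ranges of the 6 libraries. The ranges of MCM4 and MCM3 overlapped. MCM4 was higher in 4 of 6 libraries, the 3 controls and ArA replicate 1, and lower in ArA replicates 2 and 3. MCM5 was above MCM2 in 6 of 6 libraries with overlapping ranges. The ratio of MCM7 to MCM6 ran from 7.22 in ArA replicate 3 to 12.3 in control replicate 2. Among the ArA libraries it was highest in ArA replicate 1, at 9.53. GC content was 57.6% for MCM7 and 43.1% for MCM6, and its part in this ratio was not tested. Of the origin recognition complex, ORC6 was highest at 39.0 ± 5.11 TPM (SD, n = 6), and ORC1 had 13.1 ± 0.595 TPM.

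**Figure D3:**
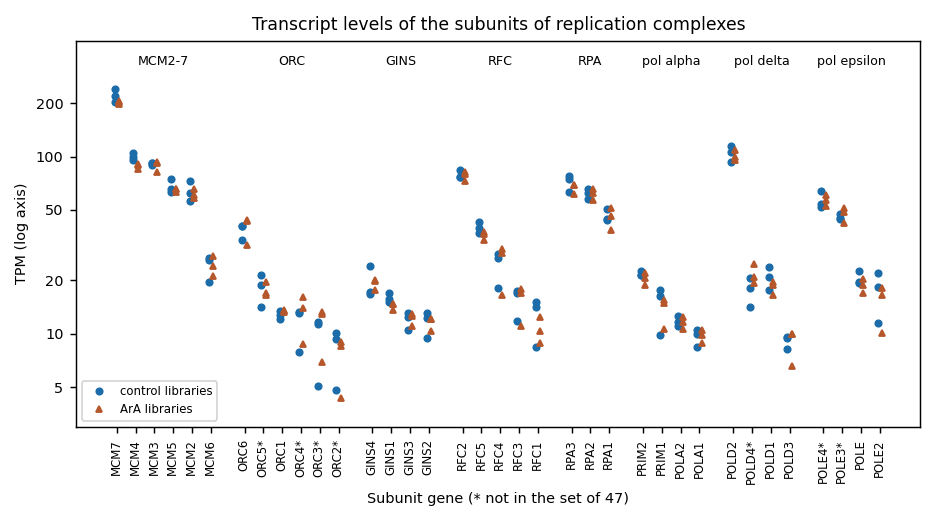
Transcript level in TPM (y axis, log scale) of each subunit of 8 replication complexes in the 3 control (circles) and 3 ArA libraries (triangles), with subunits ordered by mean level and an asterisk on genes outside the set of 47. Levels within 1 complex span several-fold, from 24.3 TPM for MCM6 to 212 TPM for MCM7, while circles and triangles overlap for each gene shown other than MCM4 and GINS1.

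Origin firing genes were the least abundant of the large groups, with a median level of 11.8 TPM. CDC45 (chromosome 22, 19479459 to 19520612, forward strand), the helicase cofactor, was the highest of them and had 27.1, 30.04 and 30.89 TPM in the controls and 26.78, 31.75 and 32.82 TPM in the ArA libraries. Its groups interleave, and its log2 difference was 0.05 (SE 0.11). GINS1 (chromosome 20, 25407727 to 25452628, forward strand), a GINS subunit, had 15.67, 15.07 and 16.97 TPM in the controls and 13.57, 14.78 and 14.64 TPM in the ArA libraries. Its ArA values lie below its control values without overlap, a log2 difference of -0.14 (SE 0.10) and a limma adjusted p of 0.999. The other GINS genes overlapped between groups, and over 6 libraries GINS4 had 19.3 ± 2.81, GINS1 15.1 ± 1.14, GINS3 12.1 ± 1.07 and GINS2 11.6 ± 1.36 TPM (SD, n = 6). GINS3 and GINS2 did not differ beyond their spread, with GINS3 higher in 4 of 6 libraries. CDC7 and DBF4, the firing kinase and its activator, were at 6.645 ± 1.96 and 8.265 ± 2.63 TPM (SD, n = 6), and DBF4 was the higher in 6 of 6 libraries. All 8 firing genes lay below the all-gene median, 5 were below 0, and the median less that of all genes was -0.08.

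All 9 polymerase genes lay below the all-gene median and 8 were below 0, with none past the test and a median less that of all genes of -0.12. POLD2 (chromosome 7, 44114681 to 44124358, reverse strand), an accessory subunit of polymerase delta, was the most abundant and had 93.35, 114.96 and 106.3 TPM in the controls and 108.71, 99.98 and 95.94 TPM in the ArA libraries. POLE2 (chromosome 14, 49643555 to 49688422, reverse strand), the second subunit of polymerase epsilon, had the lowest difference of the group and had 18.41, 11.51 and 22.06 TPM in the controls and 10.15, 16.49 and 18.02 TPM in the ArA libraries. For both genes the groups overlap, and for POLE2 the values of control replicate 2 and ArA replicate 1 are the low ones. Its log2 difference of -0.20 had an SE of 0.28. POLA1 (chromosome X, 24693919 to 24996986, forward strand), the catalytic subunit of polymerase alpha, had the highest difference of the group, 0.02 (SE 0.13), with 9.97, 8.46 and 10.47 TPM in the controls and 8.88, 9.81 and 10.54 TPM in the ArA libraries.

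Subunits of 1 polymerase differed in level. Polymerase delta's catalytic POLD1 had 19.6 ± 2.50 TPM against 103 ± 8.23 TPM for POLD2, and POLD3 had 8.97 ± 1.33 TPM (SD, n = 6). The ranges of these 3 genes did not overlap. Polymerase epsilon's POLE had 19.65 ± 1.79 and POLE2 16.1 ± 4.50 TPM, with POLE the higher in 5 of 6 libraries. In polymerase alpha, the primase subunit PRIM2 had 21.2 ± 1.33, PRIM1 14.2 ± 3.16, POLA2 11.7 ± 0.765 and POLA1 9.69 ± 0.848 TPM.

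All 11 genes of the clamp, its loader, RPA and lagging-strand joining lay below the all-gene median, 9 were below 0, and the median less that of all genes was -0.09. FEN1 (chromosome 11, 61792637 to 61797244, forward strand), the flap nuclease, was the highest and had 100.31, 90.17 and 98.44 TPM in the controls and 87.61, 100.98 and 104.66 TPM in the ArA libraries. Here FADS2, a fatty acid desaturase gene at 475 TPM, covers 4265 bases of FEN1 on the same strand, so the level of FEN1 is uncertain. RFC1 (chromosome 4, 39287456 to 39366375, reverse strand), the large subunit of the clamp loader, had the lowest difference of all 47 genes, and had 14.19, 8.45 and 15.12 TPM in the controls and 8.87, 12.38 and 10.32 TPM in the ArA libraries. Its log2 difference of -0.21 (SE 0.23, limma adjusted p = 0.999) is smaller than its error, and control replicate 2 is its lowest value. RFC4 (chromosome 3, 186789880 to 186807058, reverse strand), a small loader subunit, had 28.06, 18.2 and 26.9 TPM in the controls and 16.65, 28.39 and 30.27 TPM in the ArA libraries, again lowest in control replicate 2 and ArA replicate 1. Loader subunits ran from RFC2 at 78.7 ± 4.12 through RFC5 at 37.95 ± 3.07, RFC4 at 24.7 ± 5.79 and RFC3 at 15.4 ± 3.12 to RFC1 at 11.6 ± 2.78 TPM (SD, n = 6), in this order in 6 of 6 libraries. The RPA subunits were closer, at 69.2 ± 6.22 for RPA3, 61.8 ± 3.88 for RPA2 and 45.8 ± 4.61 TPM for RPA1, and PCNA had 94.2 TPM on average.

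Nucleotide supply genes had the highest levels of any group, with a median of 135 TPM, and a median difference less that of all genes of -0.17. That median was below those of the other 5 groups in the fit to all 6 libraries, but without control replicate 2 the checkpoint group was lower, at -0.27 against -0.13. All 5 were below 0 and 0 passed. TK1 (chromosome 17, 78174075 to 78187233, reverse strand), the salvage kinase of thymidine, had 171.92, 238.54 and 197.61 TPM in the controls and 176.48, 193.79 and 176.19 TPM in the ArA libraries. Control replicate 1 lies below all 3 ArA values, so the groups overlap, and the log2 difference was -0.14 (SE 0.13). TYMS (chromosome 18, 657604 to 673578, forward strand), which makes thymidylate, had 185.3, 194.52 and 205.62 TPM in the controls and 171.4, 183.15 and 182.86 TPM in the ArA libraries. Its groups do not overlap, with control replicate 1 just above ArA replicate 2, and its log2 difference was -0.12 (SE 0.08, limma adjusted p = 0.999). ENOSF1, at 8.93 TPM, shares 3255 bases with TYMS on the opposite strand. RRM2 (chromosome 2, 10120698 to 10131419, forward strand), the S-phase subunit of ribonucleotide reductase, had 133.21, 134.04 and 141.43 TPM in the controls and 121.76, 136.03 and 142.01 TPM in the ArA libraries, which overlap. Its ratio to the larger subunit RRM1 was 2.62 ± 0.460 in control and 2.74 ± 0.201 in ArA libraries (SD, n = 3 each). The highest ratio of each group was in control replicate 2, 3.14, and ArA replicate 1, 2.97.

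Of the fork checkpoint genes and E2F1, TIPIN (chromosome 15, 66336206 to 66386746, reverse strand), which protects stalled forks, had 23.96, 19.16 and 29.46 TPM in the controls and 19.06, 23.63 and 23.71 TPM in the ArA libraries. E2F1 (chromosome 20, 33675683 to 33686404, reverse strand), the transcription factor, had 15.3, 20.58 and 19.6 TPM in the controls and 17.82, 19.02 and 19.54 TPM in the ArA libraries. For both genes the groups overlap, and E2F1 had a log2 difference of 0.03 (SE 0.13). All 3 genes of this group lay below the all-gene median, with a median less that of all genes of -0.12, which became -0.27 without control replicate 2 and -0.02 without control replicate 3.

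**Figure D4:**
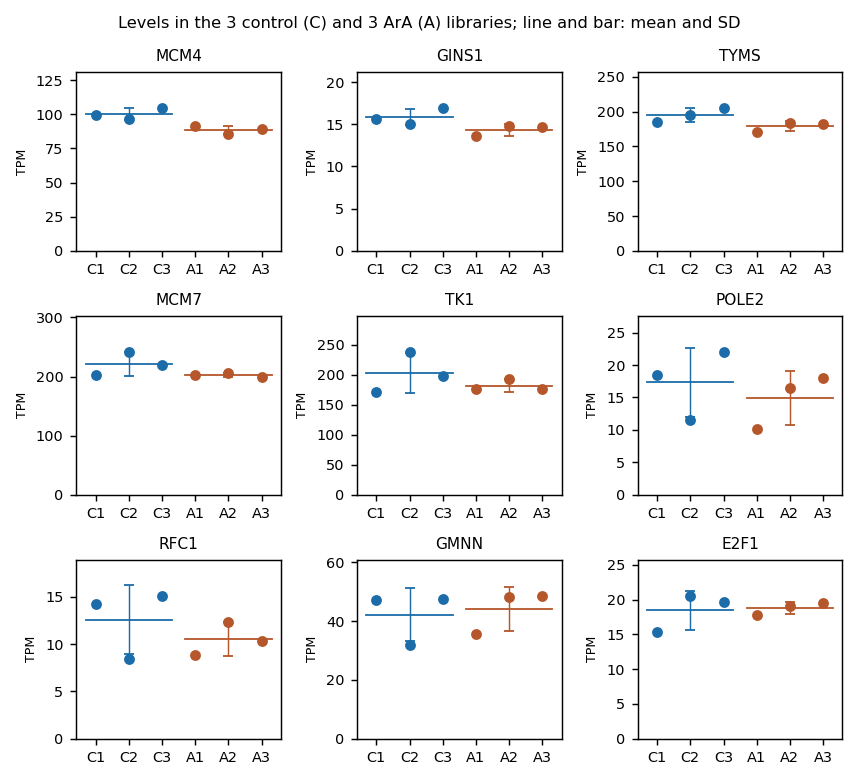
TPM (y axis from 0) of 9 replication genes in control replicates 1 to 3 (C1 to C3, blue) and ArA replicates 1 to 3 (A1 to A3, orange), with a line at the group mean and a bar of 1 SD. MCM4, GINS1 and TYMS separate the groups by a small gap, and POLE2, RFC1 and GMNN are low in C2 and A1.

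Across the 47 genes, 3 (MCM4, GINS1 and TYMS) had all 3 ArA values below all 3 control values, where 1.21% of all tested genes did, and 0 had all ArA values above, where 6.84% of all tested genes did. The count of separated genes moved with the scaling, to 9 with median-of-ratios scaling and with TPM rescaled without mitochondrially encoded genes, where 2.52% and 2.68% of all genes were separated downwards.

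The 3 role groups set against each other did not part beyond their libraries. The median difference of nucleotide genes less that of licensing genes was -0.08, and that of polymerases less licensing genes -0.03. Both were below 0 in 21 of 21 alternatives, at -0.13 to -0.01 and -0.10 to -0.01. Nucleotide genes less polymerases gave -0.04, which was below 0 in 18 of 21 alternatives and reached 0.05. Per library, the nucleotide median less the licensing median was 0.00, -0.03 and 0.07 in control replicates 1, 2 and 3 and -0.08, 0.02 and 0.01 in ArA replicates 1, 2 and 3. These values overlap between the groups, as do those of polymerases less licensing genes, at 0.03, -0.00 and 0.02 in the controls and -0.09, -0.00 and 0.03 in the ArA libraries. ArA replicate 1 is the lowest library in both.

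Control replicate 2 and ArA replicate 1 stood apart by base composition in these genes too, and its part in the differences between groups was tested only by the GC correction and by leaving both libraries out. Over the 47 genes, the Pearson correlation of GC content with the deviation from the gene mean was 0.78 in control replicate 2 and 0.61 in ArA replicate 1, and -0.72 to -0.47 in the other 4 libraries. Over 12637 tested genes the same correlations were 0.45 and 0.41, and -0.40 to -0.10. These points share a library, and genes are not independent replicates. ArA replicate 1 held the lowest of the 6 values for 23 of the 47 genes, against 20.8% of all tested genes, and control replicate 3 the highest for 18, against 15.5%. The 23 genes of lower GC content had a median difference less that of all genes of -0.12 and the 24 others -0.10. With each library's trend on GC content removed, 46 of 47 genes lay below the all-gene median, the median was -0.11, 3 genes (MCM4, MCM7 and TYMS) had an unadjusted p under 0.05 in limma, where 4.11% of all tested genes did in that fit, and 0 passed after adjustment. Without both libraries, 39 of 47 genes lay below the all-gene median, with a median of -0.08.

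**Figure D5:**
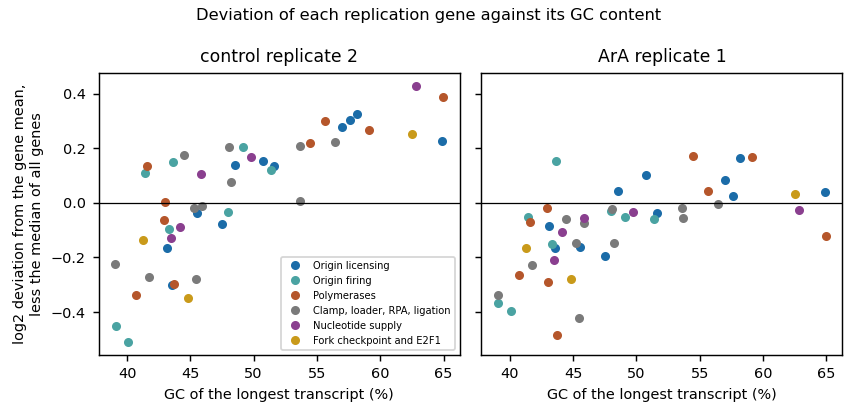
Deviation of each of the 47 genes from its mean over the 6 libraries, less the median of all tested genes (log2, y axis), against the GC content of its longest transcript (x axis), in control replicate 2 (left) and ArA replicate 1 (right), coloured by role. The median of the 23 genes of lower GC content is -0.13 (left) and -0.16 (right), while some of them lie above 0. Correlations over the 47 genes are 0.78 and 0.61.

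Of other pathway genes outside the set, 51 reached the filter. In limma over all genes, 0 of the 51 passed, 0 had an unadjusted p under 0.05, 44 lay below the all-gene median, and their median less that of all genes was -0.08. ASF1B, a histone chaperone of replicating chromatin, had 54.27, 61.17 and 59.42 TPM in the controls and 51.74, 51.3 and 53.13 TPM in the ArA libraries, without overlap (limma adjusted p = 0.999). CHAF1A, of the chromatin assembly factor and named after its values were seen, was also lower in all 3 ArA libraries. POLD4, the small subunit of polymerase delta, had 14.26, 18.2 and 20.56 TPM in the controls and 19.36, 20.85 and 24.69 TPM in the ArA libraries, with a log2 difference of 0.29 (SE 0.16). The deoxycytidine kinase gene DCK had a log2 difference of -0.21 (SE 0.14) and DBF4B, a relative of DBF4, -0.19 (SE 0.14).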

How the data were processed

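RNA-seq levels in 3 control and 3 ArA libraries came from 1 deposited table, with groups and replicate numbers from the sample titles. The authors deposited values in TPM, and the submitters' processing notes list HISAT2, StringTie, RSEM and hg38 with no version or role. Neither annotation nor strand setting is stated (not given in the sources used here), and 12 of the 47 genes share bases with an opposite-strand gene of at least 1 TPM. TPM keeps no read counts, so no counting interval can be given.

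Of the table's lines, 50 name no gene and were left out. Genes averaging 1 TPM or more (12999) were fitted on log2(TPM + 1) with limma 3.58.1 in R 4.3.3 (group as the only term, eBayes with a trend, 2-sided). Benjamini-Hochberg adjustment ran over all 12999, with a threshold of 0.05. The scale understates changes of low genes. Groups of genes are described by counts and medians, with no test. Coordinates and GC content (longest transcript) came from GENCODE 29 on hg38, and promoters from RefSeq.

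The members, their roles and the other lists were chosen with earlier results of these data known. Named with values were, per role, the gene of highest level, those of highest and lowest difference, and those that separated the groups, then subunit levels of complexes, and of each other list the gene of smallest p. Alternatives covered scaling, pseudocounts of 0.1 and 5, filters, variance models, the replicate block, a GC correction (natural spline, 5 degrees of freedom) and left-out libraries.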

Additional observations from a re-analysis of the deposited data

How the results depend on the processing

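Over 21 alternatives, the count of replication genes past an adjusted p of 0.05 stayed at 0 in limma in all but 1. With array weights it was 1 of 47, MCM4 at adjusted p = 0.0482, in a limma fit that called 214 of all 12999 tested genes. Over all settings the adjusted p of MCM4 ran from 0.0482 to 1. The median difference of the 47 genes less that of all genes, -0.11, was -0.066 with no filter on low values. It was -0.14 to -0.09 when 1 library was left out, with 36 to 46 genes below the all-gene median.

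Signs of the unsubtracted differences depend on scaling and on ArA replicate 1. Below 0 were 36 genes (31.1% of all genes), but 45 with median-of-ratios, quantile, centred or mitochondria-free scaling (48.0 to 50.7%). Without ArA replicate 1, 19 were below 0 (19.5% of all genes), with a median of 0.03 against 0.12 over all genes. Genes separated downwards numbered 14 without control replicate 2 (10.2% of all genes), 10 without control replicate 1 (3.77%), 6 without ArA replicate 2 (2.95%), 5 without ArA replicate 3 (3.06%), 3 when control replicate 3 was left out (1.95%) and 3 when ArA replicate 1 was (2.22%). The firing genes' median less that of all genes, -0.08, was -0.01 without control replicate 3. The clamp group's -0.09 became -0.15 to -0.13 without control replicate 1, control replicate 2, ArA replicate 2 or ArA replicate 3, and -0.04 with array weights or without both control replicate 2 and ArA replicate 1. Array weights put the firing genes at -0.15. MCM4, at -0.23 less the all-gene median, was at -0.31 without ArA replicate 1, and MCM7, at -0.18, at -0.06 without control replicate 2. TK1, at -0.20, was at -0.33 without control replicate 1 and -0.03 without control replicate 2. POLE2, at -0.25, was at -0.46 without control replicate 2, at -0.10 when control replicate 3 was left out and at -0.08 when ArA replicate 1 was. Over all settings RFC1 ran from -0.46 to -0.16, TIPIN from -0.28 to -0.05 and RRM2 from -0.13 to -0.05. GMNN, CDC45, POLD2, POLA1, FEN1, RFC4 and E2F1 fell on either side of the all-gene median. So did ORC1, ORC6, MCM2, MCM5, MCM6, DBF4, GINS2, GINS3, GINS4, POLA2, POLD3, RFC2, RFC3 and RPA2. Polymerases, at -0.12, were at -0.18 without control replicate 1 and -0.08 without control replicate 2.

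Deviations of same-numbered libraries correlated at -0.16, -0.28 and 0.11. Control replicate 2 and ArA replicate 1, which stood apart by GC content, correlated at 0.29. That shared shift could mask a pairing, so these values cannot tell whether equal replicate numbers pair libraries. With the replicate block, 0 genes of the 47 passed, alone or with the GC correction, and 45 and 46 lay below the all-gene median.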
